A study of Mus musculus with 4 samples.

Results

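The cells described here were chosen by a marker rule as definitive endoderm of mouse gastruloids at day 4 of culture. They were chosen in the day 4 library as cells with at least 2000 UMIs (unique molecular identifiers, each standing for a captured transcript) and a mitochondrial share under 20% that held at least 3 UMIs of *Sox17* plus *Foxa2* and at least 3 UMIs of *Epcam* plus *Cldn6* plus *Cldn7*. The rule found 562 of 7202 kept cells at day 4, or 7.80% (95% exact Clopper-Pearson interval 7.19 to 8.45), out of 29190 kept cells in the whole series. They are called endoderm cells below, after the rule, and the 6640 remaining day 4 cells are called other cells. The chosen set was mixed. When day 4 cells were clustered, 447 of the 562 fell in a group led by *Spink1*. A further 59 fell in a group led by *Dppa5a*, and 31 in a group led by *Pim2*, *Igfbp3* and *T*.

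Gastruloids are aggregates of embryonic stem cells that elongate and form derivatives of the germ layers in culture. All gastruloids came from Zx1, a wild-type mouse embryonic stem cell line, and were kept in N2B27 medium, to which Chiron, an activator of Wnt signaling, was added at day 2 for 24 h, followed by bFGF, VEGF and ascorbic acid between day 4 and day 7, under shaking from day 4. At least 8 gastruloids were pooled and trypsinized at 4 time points (day 4, then 5, then 6, and last 11), and 1 droplet library was made for each. There were therefore no replicate libraries, all results come from 1 cell line, and no test or p value between groups of cells was computed. Levels are given as CPM (counts per 1e6 UMIs), for which UMIs of a gene were added up over a set of cells and divided by all UMIs of that set. Every interval is at 95% and covers counting error only. A gene is called higher or lower where the ratio of CPM plus 5 was at least 2 or at most 0.5.

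Definitive endoderm forms during gastrulation from epiblast cells that pass through the primitive streak under strong Nodal signaling, and it later builds the epithelium of the gut tube and of organs such as liver, pancreas and lung. The T-box factor Eomes acts early in this step, the Sry-box factor Sox17 and the forkhead factor Foxa2 act in the endoderm itself, and the cells keep or regain an epithelial character with E-cadherin, claudins and keratins. Visceral endoderm is a separate, extraembryonic epithelium that arises before gastrulation and shares many of the same transcription factors.

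The rule genes gave the level of selection. *Sox17* was at 157 CPM in endoderm cells and 1.19 CPM in other cells, *Foxa2* was at 86.1 and 1.14 CPM, and the claudin genes *Cldn6* and *Cldn7* were at 126 and 139 CPM against 4.08 and 5.79 CPM. *Epcam*, which encodes an epithelial adhesion molecule, was at 317 CPM against 33.9 CPM, and was thus less particular to the chosen cells. *Sox17* plus *Foxa2* summed to a median of 9 UMIs in an endoderm cell (10th percentile 3, 90th percentile 21, highest 43), so many cells lay close to the threshold. The 58 cells just inside it, with exactly 3 UMIs of these factors, had *Spink1* at 199 CPM, *Trh* at 247 CPM and *Emb* at 410 CPM. The 53 cells just outside, with 2 UMIs and the epithelial genes met, had 105, 236 and 351 CPM, so these genes were found on both sides of the threshold. Median depth was 32116 UMIs just inside and 24474 just outside. Summed levels cannot tell a continuous range from a mixture of cells. A further 24 cells met the factor threshold without the epithelial one, and 760 met the epithelial threshold without the factor one. Those 760 cells had *Spink1* at 15.1 CPM. *Spink1* and *Trh*, which the rule did not read, had the 2 largest ratios at day 4. This ranking covers genes with at least 50 CPM in either set, the 5 rule genes left out. Both genes were chosen with earlier results of these data known, so their rank is a description and not a check of the label.

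**Figure D1:**
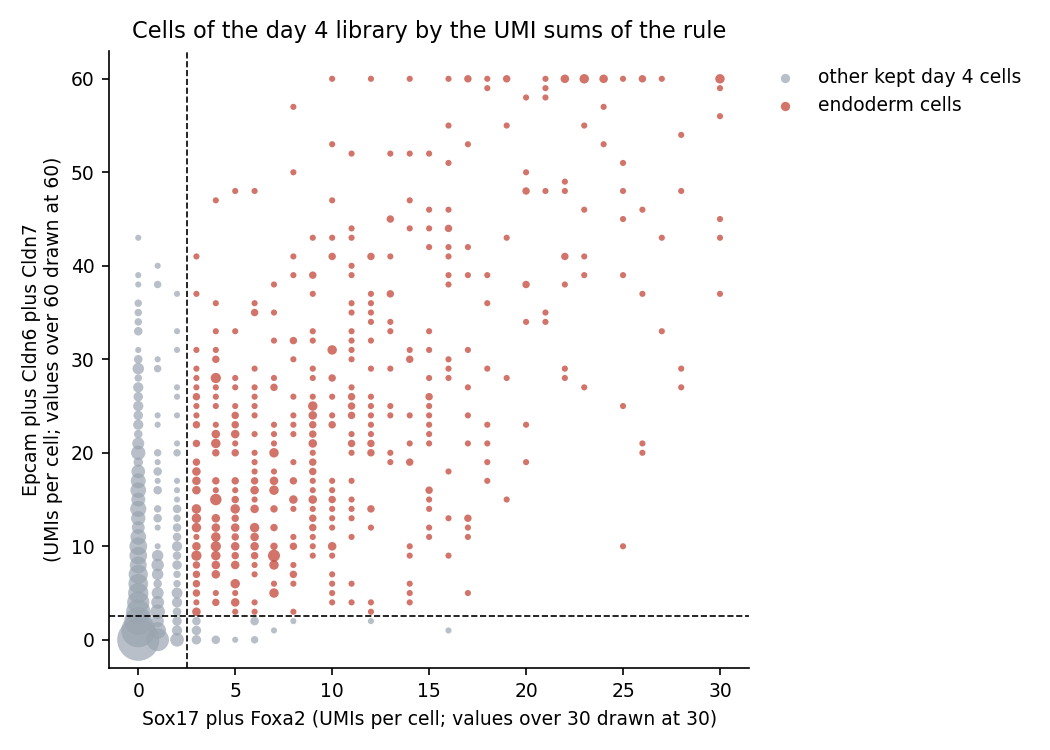
Kept cells of the day 4 library by the UMIs of *Sox17* plus *Foxa2* (horizontal axis) and of *Epcam*, *Cldn6* and *Cldn7* (vertical axis); the area of a point grows with the number of cells at that pair of values, dashed lines mark the threshold of 3 UMIs, and higher values are drawn at 30 and 60. The 562 endoderm cells (red) run without a gap from the thresholds to high values of both sums.

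Endoderm cells were captured more deeply than other cells, with a median of 33941.5 UMIs and 5450 genes per cell against 24814.5 UMIs and 4671 genes, and a rule on UMIs favors deep cells. After every cell was thinned at random to 5000 UMIs, the same rule found 76 of 7172 cells, or 1.06% (0.836 to 1.32), so the share depends on depth and threshold. Ribosomal protein genes took 37.8% of UMIs in endoderm cells and 34.4% in other cells. Among the 8% of day 4 cells with the highest simulated-doublet scores were 86 endoderm cells, or 15.3%, against 7.39% of other cells, and the part of doublets in the results was not tested beyond the counts given without them. Between 5 and 23 cell barcodes were shared by each pair of libraries, and 4 endoderm cells had a barcode found in another library.

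Day 4 endoderm cells carried 278 of 19291 tested genes (1.44%) at a higher level and 148 genes (0.767%) at a lower level than other cells, the 5 rule genes left out. The leading gene was *Spink1*, a secreted inhibitor of trypsin-like proteases, at 572 CPM in endoderm cells and 3.15 CPM in other cells, a ratio of 181 (168 to 197). *Trh*, which encodes the precursor of thyrotropin-releasing hormone and is a known early mark of endoderm, followed with 446 and 20.8 CPM. *Emb*, encoding embigin, an adhesion protein that also escorts monocarboxylate transporters to the membrane, was at 821 and 65.0 CPM, and *Slc16a1*, one of these lactate transporters, was at 243 and 38.9 CPM. The glucose transporter gene *Slc2a3* was at 683 and 90.3 CPM. Carbonic anhydrase genes *Car4* (157 and 11.7 CPM) and *Car2* (183 and 28.7 CPM) were also among the leading 25.

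Some genes of ligands and receptors were also higher. *Apela*, encoding the peptide ligand Elabela, which in zebrafish embryos guides endoderm, was at 95.6 CPM against 11.9 CPM. *Kitl*, the ligand of the receptor Kit, was at 67.0 CPM against 12.4 CPM, and *Kit* itself was at 21.5 CPM against 4.49 CPM. *Flt1*, a VEGF receptor best known from blood vessels, was at 131 CPM against 7.10 CPM. Endothelial genes did not accompany it: *Cdh5* had 6 UMIs in all endoderm cells, *Tek* had 3, and *Tie1*, *Erg* and *Emcn* had 0 of 23932416 UMIs. Of 15 measured endothelium genes none was higher and *Etv2* was lower, at 3.97 CPM against 20.3 CPM. Among all tested genes 1.44% were higher and 0.767% lower, so so few calls would be usual for a list of this size. Only 2 of the 15 reached 5 CPM in endoderm or other cells, which limits this count. *Pcbd1*, which encodes an enzyme that recycles the pterin cofactor of amino acid hydroxylases, was at 132 CPM against 6.97 CPM.

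Shares of cells with a UMI were read after thinning to 5000 UMIs, beside those of mesoderm cells. The 4730 mesoderm cells held at least 3 UMIs of *Mesp1*, *Pdgfra* and *Hand1*, under 3 of the epithelial genes, none of *Sox17* or *Foxa2* and under 3 of *T*, with a median depth of 25681 UMIs before thinning. *Spink1* was found in 54.7% of endoderm cells and 0.720% of mesoderm cells, *Trh* in 69.9% and 2.14%, and *Flt1* in 42.8% and 3.32%. *Emb* was found in 91.1% of endoderm cells but also in 23.8% of mesoderm cells, so it separated the cells by level more than by presence.

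Endoderm cells also differed from epithelial cells without endoderm factors and from streak cells. The other cells most like them lay in the group led by *Spink1*, with *Spink1*, *Trh* and *Emb* at 163, 246.5 and 687 CPM. They were not used as a comparison set. Pluripotency genes summed to 4121 CPM in the epithelial cells used here and 1327 CPM in endoderm cells. Epithelial cells without endoderm factors (371 cells, median 29171 UMIs) met the epithelial threshold with no *Sox17* or *Foxa2* UMI and under 3 UMIs of *T*, and streak cells (755 cells, median 26442 UMIs) held at least 3 UMIs of *T*, the primitive streak factor brachyury. Over epithelial cells 191 genes (0.99%) were higher, over streak cells 203 (1.05%) and over mesoderm cells 395 (2.05%). Of the 278 genes higher over all other cells, 144 were also higher over the epithelial cells, which is 51.8% of the 278 and 75.4% of the 191. Of the 25 leading genes, 21 were higher over epithelial cells, and the 4 that were not were *Cdh1*, *Tle5*, *Gldc* and *Crip1*. The leading genes were picked by their ratio over all other cells, which include these epithelial cells. That choice favored a high count, so the count is a description only. *Cdh1*, encoding E-cadherin, was at 65.8 CPM in endoderm, 42.3 in epithelial, 32.7 in streak and 0.554 CPM in mesoderm cells, and so marked epithelia in general. *Trh* was at 112 CPM in the epithelial cells and 51.6 CPM in streak cells, whereas *Spink1* was at 5.05 and 2.01 CPM there.

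**Figure D2:**
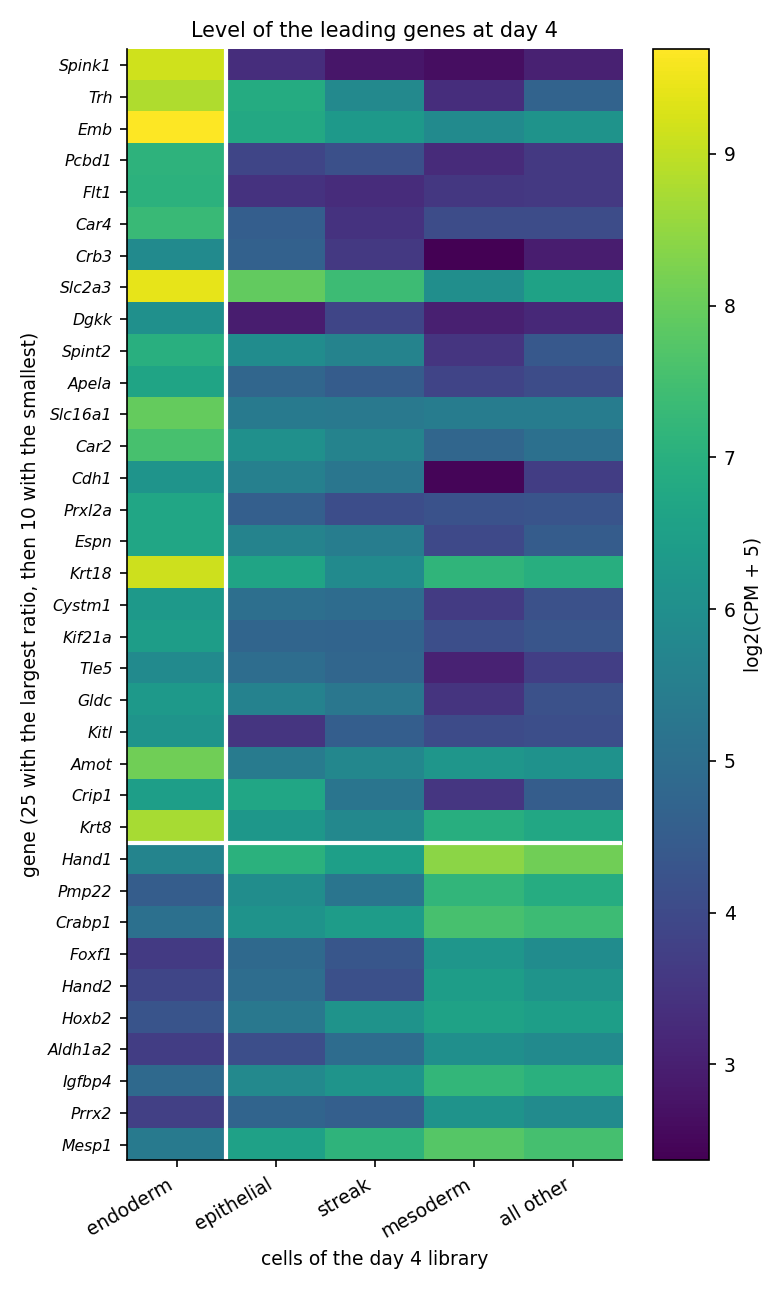
Level, as log2 of CPM plus 5, of the 25 genes with the largest and the 10 with the smallest ratio (vertical axis) in 5 sets of day 4 cells (horizontal axis: endoderm, epithelial without endoderm factors, streak, mesoderm and all other cells). *Spink1* is high in endoderm cells alone among these sets, and *Cdh1* is shared with epithelial and streak cells. *Hand1* is highest in mesoderm cells, which were chosen in part by their *Hand1* UMIs and by few UMIs of the epithelial rule genes.

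Promoter sequence of the leading genes was examined for the letters that forkhead and SOX factors prefer, because *Foxa2* and *Sox17* chose the cells. In the 250 bases before the RefSeq gene start (GRCm38.p6), available for 19 of the 25 leading genes, a forkhead motif (TGTTTAC or TGTTTGC, either strand) was found in 2 genes, *Apela* and *Espn*, or 10.5%, against 8.22% of 27025 genes. A SOX motif (ACAATGG or ACAATAG, either strand) was found in 1 gene, *Pcbd1*, or 5.26%, against 5.79% of all genes. The leading genes therefore held these letters about as often as genes in general. A stretch of the *Apela* promoter is shown as that of a leading gene with the letters, and that of *Foxa1* as a gene of the same forkhead family, each 5′ to 3′ on the strand of the gene with the match, which reads TGTTTAC on the opposite strand, in capitals.
Apela, chr8:65037337-65037396, minus strand: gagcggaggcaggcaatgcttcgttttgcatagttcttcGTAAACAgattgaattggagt
Foxa1, chr12:57546219-57546278, minus strand: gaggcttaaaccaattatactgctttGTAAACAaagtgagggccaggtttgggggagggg
The match lies 21 bases before the start of *Apela* and 141 bases before that of *Foxa1*, counted to its base farthest upstream. A match is a description of letters and not a measured binding site.

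Of 17 measured endoderm transcription factors, *Sox17* and *Foxa2* left out, 6 were higher and 0 were lower in endoderm cells. Over all tested genes 1.44% were higher and 0.767% lower. The median log2 ratio was 0.79 against -0.0085 over all tested genes. The forkhead genes *Foxa1* and *Foxa3*, which act with *Foxa2* in gut and liver, were at 23.1 and 16.3 CPM against 0.320 and 0.477 CPM. The epithelial ETS factor *Elf3* was at 35.1 CPM against 3.69 CPM. *Tcf7l2*, a transcriptional effector of Wnt signaling, was at 74.5 CPM against 21.6 CPM, and *Otx2*, a factor of the anterior epiblast and foregut, at 30.04 CPM against 8.70 CPM. These factors were spread over many cells: *Foxa1* had a UMI in 270 endoderm cells and *Foxa3* in 244, and the 10 cells with the most UMIs held 13.0% and 11.8% of the UMIs of these genes.

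Factors that endoderm shares with mesoderm were at similar levels in both. *Gata6* was at 96.5 CPM in endoderm and 76.3 CPM in other cells, *Gata4* at 36.8 and 28.8 CPM, and *Eomes* at 64.1 and 55.0 CPM, all of them below the 2-fold limit. In mesoderm cells *Gata6*, *Gata4* and *Eomes* were at 91.3, 34.1 and 65.1 CPM, close to the endoderm cells, whereas in streak cells they were at 20.2, 11.9 and 20.4 CPM. *Hhex*, a homeobox gene of the anterior endoderm and liver bud, was at 8.90 CPM against 3.05 CPM and had 0 UMIs in 73.7% of endoderm cells. *Hnf4a*, a hepatocyte and gut factor, was at 3.80 CPM, with 91 UMIs in all endoderm cells against 5 in other cells.

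Beside 1.44% of all tested genes higher and 0.767% lower, 6 of 14 measured definitive endoderm and early gut genes were higher. None was lower (median log2 ratio 0.36). Besides *Spink1*, *Trh* and *Emb* the higher genes were *Tmprss2*, a membrane serine protease gene (33.8 and 0.462 CPM), *Krt19* (37.1 and 5.86 CPM) and the carboxypeptidase gene *Cpm* (25.9 and 3.86 CPM). Markers of later or regional endoderm were scarce. *Cer1*, a secreted Nodal and BMP antagonist of the anterior endoderm, was at 2.80 CPM and had 0 UMIs in 94.3% of endoderm cells, *Pyy* had 6 UMIs in all and *Nepn* had 5. *Cxcr4*, a chemokine receptor often used to sort definitive endoderm, was at 6.06 CPM in endoderm cells and 13.6 CPM in other cells, with 16.8 CPM in mesoderm cells.

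Visceral endoderm genes were higher for 5 of 19 measured genes, beside 1.44% of all tested genes. They were *Ttr*, *Cubn*, *Amn*, *Dab2* and *Cited1*, and the visceral endoderm list had a median log2 ratio of 0.32. Some other genes of that tissue were nearly undetected in the 562 cells, with 6 UMIs of the fetal albumin gene *Afp*, 1 of *Apoa2*, 3 of *Trf* and 0 of *Fga*. Others of the list were detected but below the limit. *Ihh* had 107 UMIs (4.47 CPM against 0.0984 CPM in other cells) and *Apom* had 83 UMIs, with 0.197 CPM in other cells. Much of the signal sat in few cells. *Cubn*, which encodes the uptake receptor cubilin, had 280 UMIs in endoderm cells, and 97.1% of them lay in 7 cells with at least 5 *Cubn* UMIs, a minimum chosen after the values were seen. These 7 cells held between 14 and 86 *Cubn* UMIs each, and 3 other kept day 4 cells reached the same minimum.

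The 7 *Cubn* cells stood apart from the remaining 555 endoderm cells in a whole set of genes, described here without a test since the cells were picked by their values. The partners of cubilin in endocytosis were high in them: *Amn* was at 415 CPM against 2.37 CPM, *Lrp2* at 234 against 0.466 CPM and *Dab2* at 1159 against 10.0 CPM. *Apoe* was at 2429 CPM against 644 CPM, the matrix gene *Sparc* at 1776 against 84.7 CPM and *Lama1* at 146 against 3.43 CPM. *Spink1* was found in all 7 cells, at 2326 CPM against 546 CPM. *Trh* was found in only 1 of the 7, *Fgf8* and *Fgf5* in none, and *Vim*, encoding the mesenchymal filament vimentin, was at 8.78 CPM against 226 CPM. All 7 lay in the same transcriptome group as most endoderm cells, none had a high doublet score, and they held 18036 to 128756 UMIs. Without them the visceral endoderm list had 2 higher genes of 19, *Ttr* and *Cited1*, with a median log2 ratio of 0.19, and the ratio of *Dab2* went from 2.94 to 1.41 and that of *Amn* from 2.35 to 1.30. *Ttr*, the gene of the thyroxine carrier transthyretin, was spread more widely, with a UMI in 107 endoderm cells and 24.4 CPM against 0.108 CPM.

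Of 13 parietal endoderm genes the collagen genes *Col4a1* (141 and 36.9 CPM) and *Col4a2* (58.4 and 14.7 CPM), which encode the main chains of basement membrane collagen, were higher, and *Snai1* was lower. Among all tested genes 1.44% were higher and 0.767% lower. Both collagen genes were also well above the mesoderm cells, at 39.9 and 15.6 CPM. *Sox7*, a defining factor of parietal endoderm, had 16 UMIs in endoderm cells, of which the 7 *Cubn* cells held 14.

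Epithelial genes formed the list with the largest median. Of 25 measured adhesion and keratin genes beyond the rule genes, 16 were higher and 0 were lower, with a median log2 ratio of 1.34. Among all tested genes 1.44% were higher and 0.767% lower. Endoderm cells were chosen in part by epithelial UMIs, and 4730 of the 6640 other cells were mesoderm cells with few of them. The choice of cells thus favored this direction. The keratin genes *Krt18* (555 and 120 CPM) and *Krt8* (418 and 104 CPM), the first keratins of the embryo, were high in mesoderm cells too, at 137 and 119 CPM, above the epithelial cells at 94.5 and 70.9 CPM. *Krt7* (18.7 and 0.334 CPM), the polarity gene *Crb3* (53.1 and 2.69 CPM), the splicing regulator *Esrp1* (31.6 and 2.99 CPM), the vesicle gene *Rab25* (37.1 and 2.82 CPM) and the protease inhibitor *Spint2* (121 and 15.8 CPM) were at 6.31 CPM or less in mesoderm cells. *Cldn3*, *Cldn4* and *Cldn5* did not reach the limit, at 4.35, 2.30 and 0.376 CPM.

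Mesenchymal and EMT genes went the other way, with 0 of 17 higher and 9 lower and a median log2 ratio of -1.31. Among all tested genes 1.44% were higher and 0.767% lower. The choice of endoderm cells by epithelial UMIs favored this direction too. *Cdh11*, a mesenchymal cadherin, was at 7.31 CPM against 47.6 CPM. The repressors of E-cadherin *Zeb1* (4.35 and 28.5 CPM), *Zeb2* (9.28 and 37.0 CPM), *Snai1* (9.11 and 37.8 CPM) and *Snai2* (3.68 and 19.2 CPM) were all lower, as was *Twist1* (29.6 and 107 CPM). The neural cadherin gene *Cdh2* was at 80.2 and 87.9 CPM and *Vim* was at 223 and 428 CPM.

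The gene with the smallest ratio among those with at least 50 CPM in either set was *Hand1*. This factor of lateral and extraembryonic mesoderm was at 45.5 CPM in endoderm cells and 270 CPM in other cells, and 66.7% of endoderm cells had 0 UMIs of it. *Mesp1*, the factor of early cardiopharyngeal mesoderm, was at 36.8 and 180 CPM, *Hand2* at 9.82 and 65.8 CPM and *Foxf1* at 7.23 and 56.3 CPM. *Aldh1a2*, the enzyme that makes retinoic acid in mesoderm, was at 7.86 and 53.3 CPM, and *Crabp1*, a retinoic acid binding protein gene, at 28.7 and 164 CPM. Over the whole list 0 of 20 mesoderm genes were higher and 10 were lower (median log2 ratio -1.05), beside 1.44% and 0.767% of all tested genes. The list summed to 206 CPM in endoderm and 940 CPM in other cells. How much of the remaining mesodermal RNA came from free RNA or doublets was not tested; without the highest doublet scores 11 of the 20 genes were lower.

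Few markers of other tissues were expressed at a level that allows a call. Only 3 of 10 neural and 1 of 7 blood genes reached 5 CPM in endoderm or other cells, and none was past the limit, beside 1.44% of all tested genes higher and 0.767% lower. Of 10 cardiomyocyte genes *Myl7* was lower (19.7 and 53.5 CPM). The defining genes *Sox1*, *Neurog2*, *Hbb-bh1* and *Myh6* had 1, 1, 0 and 2 UMIs in all endoderm cells.

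**Figure D3:**
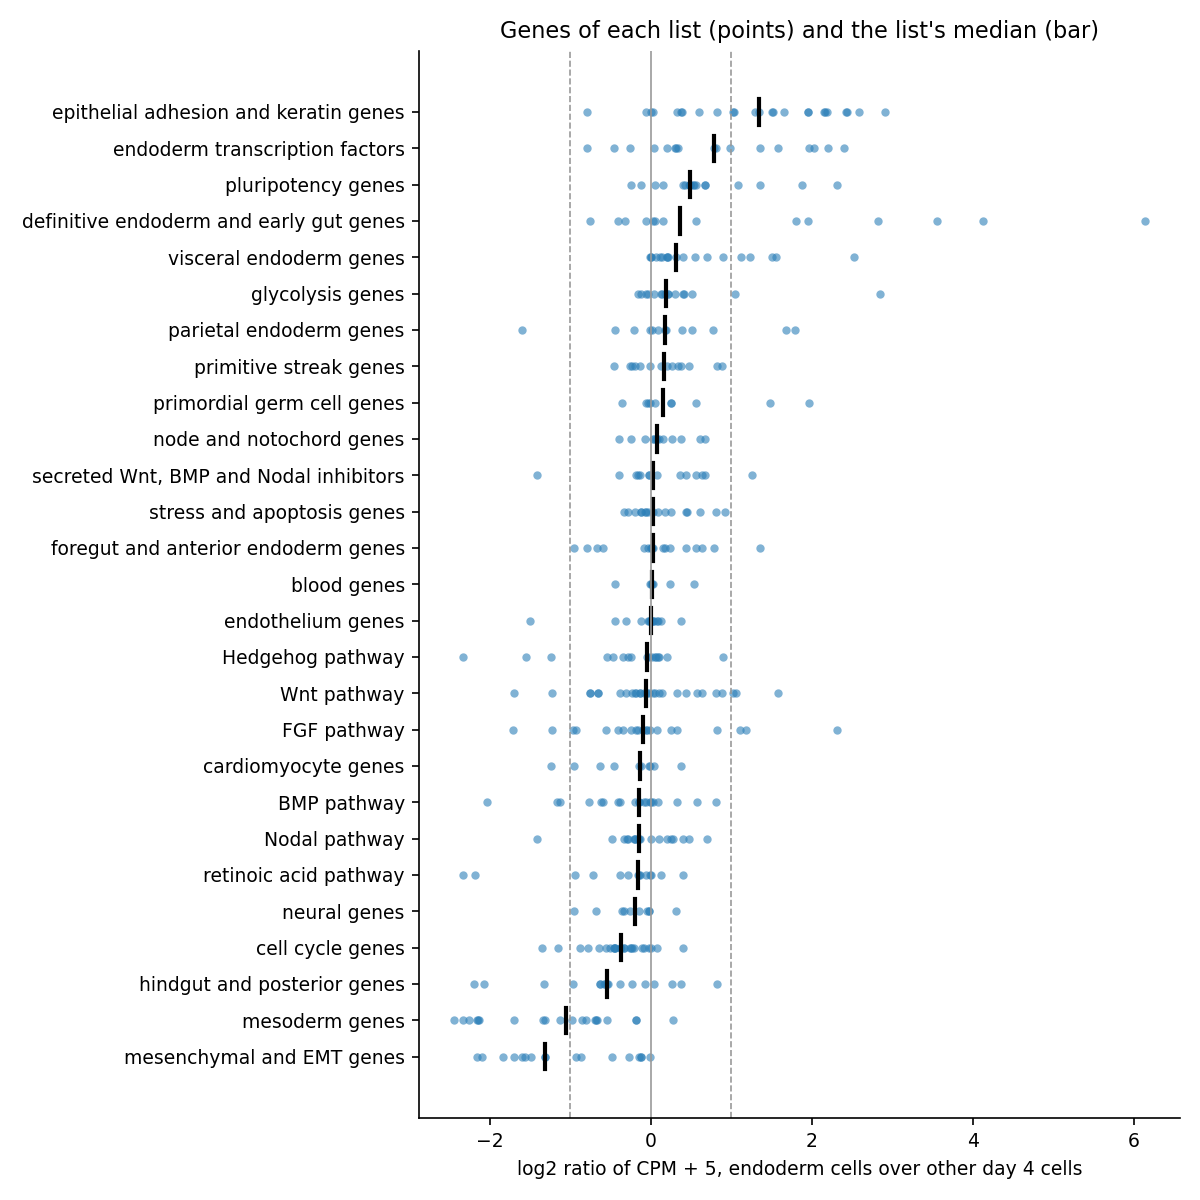
Genes of each list (points) and the median of the list (bar) by the log2 ratio of CPM plus 5 in endoderm over other day 4 cells (horizontal axis); rule genes are left out and dashed lines mark 2-fold. The epithelial list has the highest median at 1.34 and the mesenchymal list the lowest at -1.31, while most signaling lists center near 0. Endoderm cells were chosen in part by epithelial UMIs, which favored both extremes.

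Signaling lists held genes past the limit in both directions, and their counts stand beside 1.44% of all tested genes higher and 0.767% lower. None of 19 Nodal pathway genes was higher and 1, *Lefty2* (4.01 and 19.1 CPM), was lower. The Nodal coreceptor genes *Cfc1* and *Tdgf1* were at 234 and 51.6 CPM against 142 and 59.9 CPM. Of 14 secreted inhibitors of Wnt, BMP and Nodal, *Frzb* was higher (26.3 and 8.05 CPM), *Lefty2* was lower and *Dkk1*, a Wnt antagonist of anterior mesendoderm, was at 46.0 and 27.8 CPM.

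For Wnt, 3 of 30 genes were higher and 2 lower, with a median log2 ratio of -0.05 that became 0.06 when the median ratio of genes was set to 1 and 0.01 without mitochondrial and ribosomal protein genes, so the list had no stable direction. Among the nuclear effectors *Tcf7l2* was higher, *Lef1* was lower (24.8 and 92.1 CPM), and *Tcf7* was at 32.9 and 36.6 CPM. The target *Axin2* was at 34.1 and 30.5 CPM. Among ligands *Wnt11* was higher (7.94 and 1.37 CPM) and *Wnt5a* lower (16.003 and 44.1 CPM), and *Sp8* was the remaining higher gene (15.3 and 4.78 CPM).

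For FGF, 3 of 21 genes were higher and 2 lower (median log2 ratio -0.09). *Fgf5*, a ligand of the late epiblast, was at 29.0 CPM against 1.83 CPM, and the feedback genes *Dusp4* (46.5 and 17.6 CPM) and *Spry1* (21.3 and 7.20 CPM) were higher. *Fgf8* was at 147 CPM in endoderm cells, 81.2 CPM in other cells and 345 CPM in streak cells, and the receptor *Fgfr1* was at 59.0 and 70.8 CPM. *Fgf3* (6.85 and 33.8 CPM) and *Fgf15* (3.68 and 15.3 CPM) were lower, and without the highest doublet scores 4 genes were.

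For BMP, 0 of 20 genes were higher and 3 were lower, all of them ligands: *Bmp4* (11.9 and 64.0 CPM), *Bmp2* (5.98 and 19.6 CPM) and *Bmp5* (4.43 and 15.6 CPM). The target *Id1* was at 478 CPM against 270 CPM and *Id3* at 401 against 417 CPM. *Msx2*, another target, was at 56.2 CPM in endoderm cells with both *Sox17* and *Foxa2*, against 86.3 CPM in other cells. Of 17 Hedgehog genes, *Gas1*, *Gli3* and *Foxf1* were lower and none was higher; *Shh*, the ligand of the later gut, had 15 UMIs in all endoderm cells. Of 14 retinoic acid genes *Aldh1a2* and *Crabp1* were lower, and the degrading enzyme *Cyp26a1* was at 47.9 and 43.3 CPM.

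Regional genes gave no single address along the gut. Of 18 foregut and anterior genes, 8 of which reached 5 CPM in endoderm or other cells, only *Otx2* was higher and 0 were lower. *Nkx2-1*, the thyroid and lung factor, had 2 UMIs in all endoderm cells, *Pax9* had 26 and *Pax1* had 1. Of 17 hindgut and posterior genes 0 were higher and 3 were lower, among them *Hoxb1* (14.8 and 78.3 CPM) and *Hoxb2* (14.4 and 84.0 CPM), whereas *Cdx2*, a posterior and hindgut factor, was at 32.3 CPM against 52.9 CPM and 144 CPM in streak cells. In cells thinned to 5000 UMIs *Otx2* was found in 70 of 561 endoderm cells and *Cdx2* in 60, but only 2 held both: *Cdx2* was found in 2.86% (0.348 to 9.94) of *Otx2*-positive and 11.8% (9.09 to 15.002) of *Otx2*-negative endoderm cells. None of 13 node and notochord genes was past the limit, but only 3 of them reached 5 CPM in endoderm or other cells, and *Noto* had 4 UMIs. The counts of these regional lists stand beside 1.44% of all tested genes higher and 0.767% lower.

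Of 14 primitive streak genes none was higher or lower, beside 1.44% of all tested genes higher and 0.767% lower. *T* was at 50.1 CPM in endoderm cells and 37.5 CPM in other cells, *Mixl1* at 14.5 and 21.8 CPM, *Gsc* at 15.4 and 11.1 CPM and *Lhx1* at 72.0 and 87.1 CPM. *T* had 0 UMIs in 61.6% of endoderm cells. In thinned cells those with *T* more often held *Cdx2* (32.8%, 21.6 to 45.7, against 7.85%, 5.64 to 10.6) and *Pou5f1* (43.8%, 31.4 to 56.7, against 18.9%, 15.6 to 22.6), and *Spink1*-positive cells less often held *T* (7.17%, 4.55 to 10.6, against 16.5%, 12.2 to 21.7). These shares rest on 64 *T*-positive cells of 1 library.

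Pluripotency and epiblast genes were higher for 4 of 19, with a median log2 ratio of 0.49: *Fgf5*, the DNA methyltransferase gene *Dnmt3b* (316 and 82.0 CPM), *Otx2* and *Nanog* (23.9 and 8.55 CPM). This count and that of the germ cell genes below stand beside 1.44% of all tested genes higher and 0.767% lower. The pluripotency list depended on which endoderm cells entered. When day 4 cells were clustered without the rule genes, 447 endoderm cells (79.5%) fell in a group led by *Spink1*, *Trh*, *Emb* and *Pcbd1*, of which they made up 82.2%. A further 59 cells (10.5%) lay in a group led by *Dppa5a*, *Tdh* and *Klf2*, and 31 (5.52%) in a group led by *Pim2*, *Igfbp3* and *T*. In the *Spink1* group alone the pluripotency list had 3 higher and 5 lower genes and a median of -0.50. *Dppa5a*, a gene of naive pluripotent cells, was at 110 CPM in endoderm cells of that group, 1321 CPM in the remaining endoderm cells and 284 CPM in other cells. The 59 cells of the *Dppa5a* group were deep, with a median of 62413 UMIs, and 30.5% of them were among the highest doublet scores, against 11.4% in the *Spink1* group. Of the other cells in the same groups, 23.3% and 6.19% were among the highest scores. *Dnmt3b* and *Fgf5* did not follow *Dppa5a*: they were at 342 and 30.9 CPM within the *Spink1* group and 250 and 24.3 CPM in the remaining endoderm cells. Of 10 primordial germ cell genes *Prdm1* (25.7 and 2.85 CPM), also a gene of anterior and visceral endoderm, and *Kit* were higher.

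Most endoderm cells held both factors of the rule. *Sox17* and *Foxa2* were both present in 484 cells (86.1%), *Sox17* alone in 50 (8.90%) and *Foxa2* alone in 28 (4.98%), and the 3 sets had median depths of 35157.5, 25354 and 37804.5 UMIs. Presence was read without thinning, so a cell of 1 factor may have held the other undetected. The sets differed nonetheless in the genes that the rule did not read. Of 28 *Foxa2* only cells 4 lay in the *Spink1* group and 19 in the *T* and *Igfbp3* group, whereas 35 of 50 *Sox17* only cells lay in the *Spink1* group.

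The largest ratio of *Foxa2* only over *Sox17* only cells was that of *T*, with *Igfbp3*, *Tpd52l1*, *Pim2* and *Sema6a* also among the 10 largest. *T* was at 336 CPM in them, 35.6 CPM in cells with both factors and 16.9 CPM in *Sox17* only cells. *Fst*, encoding the activin antagonist follistatin, was at 246, 19.9 and 29.4 CPM in the same order, *Lefty1* at 65.0, 4.93 and 5.08 CPM, *Ptch1*, the Hedgehog receptor and target, at 138, 31.0 and 17.5 CPM, and *Foxb1* at 61.8, 4.50 and 2.26 CPM. *T* and *Rspo3* were near the level of streak cells, where they were at 262 and 353 CPM against 336 and 256 CPM in *Foxa2* only cells. Streak cells were chosen by their *T* UMIs, so their level of *T* follows from that choice. *Ptch1* and *Pim2*, at 138 and 159 CPM, were above the streak cells at 44.3 and 42.8 CPM. *Noto*, which marks the node, had 3 UMIs in the 28 cells and *Foxj1*, the factor of motile cilia, had 19 UMIs, or 15.1 CPM.

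The *Sox17* only cells resembled the cells with both factors in their keratins and *Gata6* and differed in *Spink1*. *Krt18* was at 443 CPM in *Sox17* only cells, 590 CPM in cells with both and 120 CPM in *Foxa2* only cells, and *Gata6* was at 85.2, 102 and 17.4 CPM. *Spink1* was at 179 CPM in *Sox17* only cells, 637 CPM in cells with both and 45.1 CPM in *Foxa2* only cells. *Trh* was less uneven, at 242, 479 and 182 CPM.

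**Figure D4:**
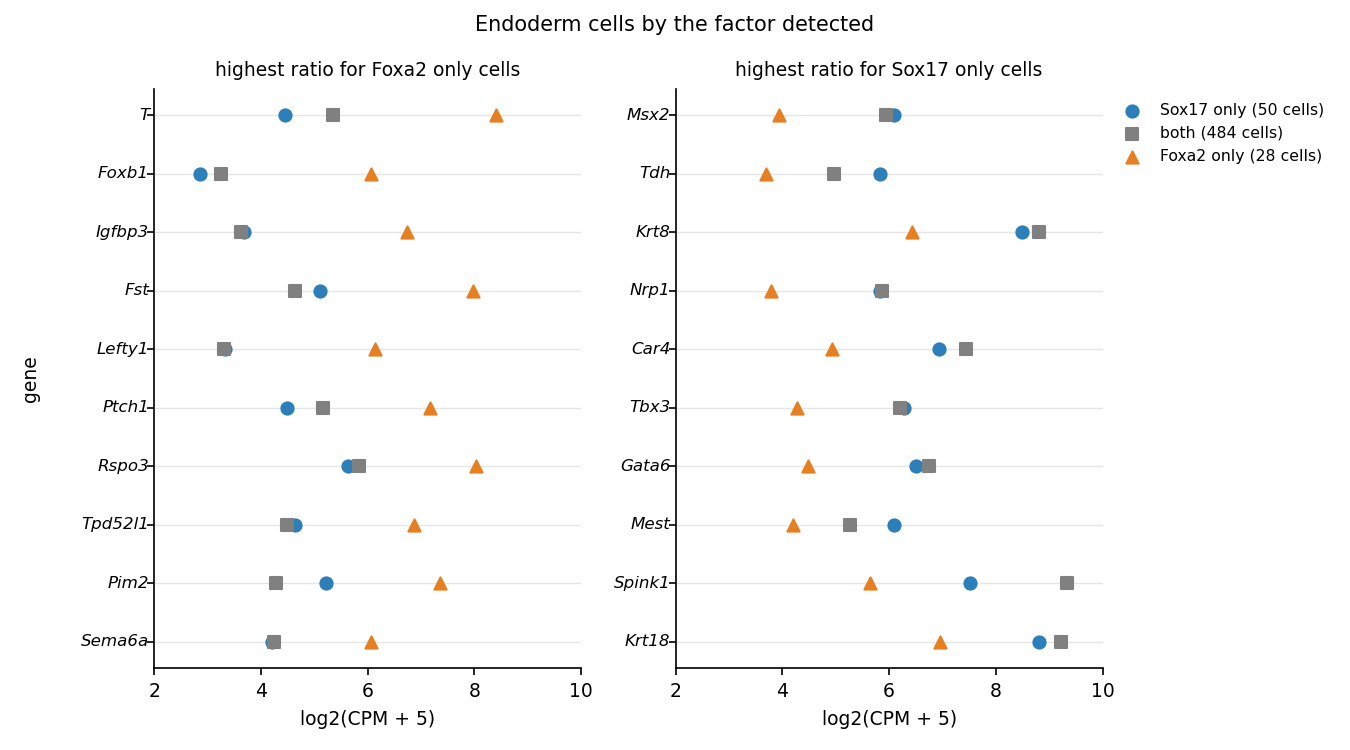
Level, as log2 of CPM plus 5 (horizontal axis), in endoderm cells with *Sox17* only (blue circles, 50 cells), both factors (grey squares, 484 cells) and *Foxa2* only (orange triangles, 28 cells) of the 10 genes with the largest ratio between *Foxa2* only and *Sox17* only cells (left) and the 10 with the smallest (right). Cells with both factors lie near *Sox17* only cells for *T* and *Fst*, and *Foxa2* only cells are lowest for *Krt8*, *Krt18* and *Spink1*.

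Endoderm cells varied among themselves in the leading genes, and they differed more in whether *Spink1* was detected than in whether *Emb* was. *Spink1* per cell had a median of 197 CPM, with 0 UMIs in 29.7% of cells, 1533 CPM at the 90th percentile and 6403 CPM at most. *Trh* had a median of 326 CPM, with 0 UMIs in 7.65% of cells and 1202 CPM at the 90th percentile. *Emb* ran from 246 CPM at the 10th percentile over a median of 943 CPM to 1702 CPM at the 90th, and 2 of 562 cells had none. In thinned cells *Trh* was found in 75.9% (70.7 to 80.6) of *Spink1*-positive and 62.6% (56.3 to 68.6) of *Spink1*-negative cells. Of 561 thinned cells 233 held both and 159 held *Trh* without *Spink1*. *Ttr* was found in 9.45% (6.42 to 13.3) of *Spink1*-positive and 1.18% (0.244 to 3.41) of *Spink1*-negative cells.

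Cell cycle and metabolic genes completed the picture. Of 25 cell cycle genes 0 were higher and 2, *Ccnd2* (60.3 and 161 CPM) and *Rrm2* (65.6 and 152 CPM), were lower, with a median log2 ratio of -0.37. *Mki67* was at 126 and 147 CPM and *Top2a* at 313 and 395 CPM. Of 16 glycolysis genes the glucose transporters *Slc2a3* and *Slc2a1* (272 and 129 CPM) were higher and none was lower, while the enzyme genes *Hk2* (115 and 84.4 CPM), *Pkm* (1148 and 1191 CPM) and *Ldha* (2618 and 2316 CPM) were below the limit. None of 17 stress and apoptosis genes was past it. The counts of these lists stand beside 1.44% of all tested genes higher and 0.767% lower.

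The same rule found 570 cells at day 5 (7.69%, 7.10 to 8.32), 114 at day 6 (1.95%, 1.61 to 2.34) and 26 at day 11 (0.298%, 0.195 to 0.436). These libraries were made on different days of culture and differ in depth, with medians of 35659, 50569.5 and 60413 UMIs in the rule cells and 28024, 25332.5 and 12048.5 UMIs in the remaining cells, so library and day cannot be told apart. At 5000 UMIs per cell the rule found 46, 12 and 0 cells, where 0 of 8390 cells at day 11 allows up to 0.0440%. Against the remaining cells of their day, 227 genes (1.11%) were higher at day 5, 371 (1.9%) at day 6 and 715 (3.59%) at day 11. Of the 278 genes higher at day 4, 151 were also higher at day 5, which is 54.3% of the 278 and 66.5% of the 227. At day 6 the overlap was 159 genes, 57.2% and 42.9% of each list, and at day 11 it was 122 genes, 43.9% and 17.1%.

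Most leading genes of day 4 marked the rule cells of later days too: 24 of 25 were higher at day 5, 22 at day 6 and 16 at day 11. *Spink1* was at 942 CPM at day 5, 579 CPM at day 6 and 333 CPM at day 11, against at most 22.2 CPM in the remaining cells of any of these days. *Krt18* was at 1091, 600 and 1158 CPM. Some genes were at lower levels in the rule cells of day 5 than at day 4. *Fgf5* was at 29.0 CPM at day 4 and 1.75 CPM at day 5, and *Dnmt3b* at 316 and 26.2 CPM. *Eomes* was at 64.1 and 7.95 CPM, *T* at 50.1 and 8.07 CPM and *Trh* at 446 and 74.96 CPM. *Trh* was nonetheless still higher in the rule cells than in the remaining cells at days 5 and 6, but not at day 11. The epiblast and streak genes had low levels in the rule cells 1 day later.

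Others were near 0 or low at day 4 and higher later. *Nepn*, a gene of the midgut, had 5 UMIs at day 4 and was at 143 CPM at day 6, *Pyy*, a peptide hormone gene of gut cells, at 0.251 and 246 CPM, and *Shh* at 0.627 and 67.4 CPM. *Cdx2* was at 117 CPM at day 6. *Hhex* was at 8.90 CPM at day 4, 30.2 CPM at day 6 and 58.1 CPM at day 11. *Ttr* was at 24.4, 111, 279 and 1998 CPM on the 4 days, and *Rbp4*, the retinol carrier gene, at 4.76, 52.2, 457 and 3651 CPM. At day 11, in 26 cells, the liver and yolk sac genes *Afp* and *Apoa2* were at 3874 and 1769 CPM, against 0.251 and 0.0418 CPM at day 4.

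**Figure D5:**
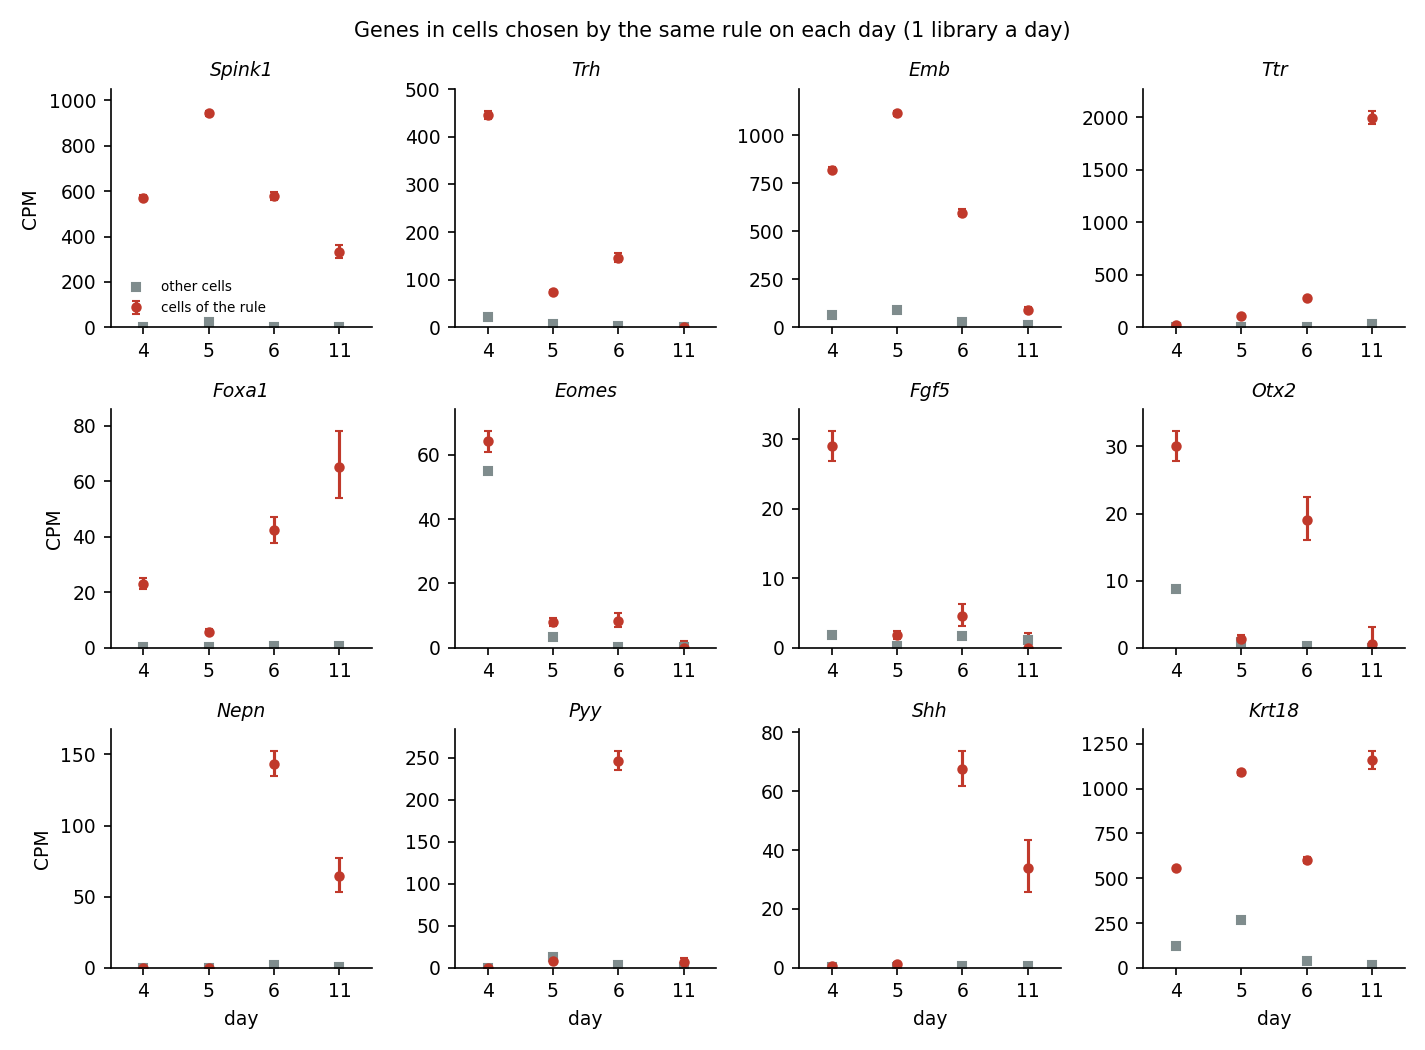
Level in CPM (vertical axis, from 0) of 12 genes in cells chosen by the same rule (red circles, bars are 95% Poisson intervals of counting error) and in the remaining cells (grey squares) at days 4, 5, 6 and 11 (horizontal axis, not to scale), with 1 library a day. *Trh*, *Eomes* and *Fgf5* are highest at day 4, *Nepn*, *Pyy* and *Shh* are low at days 4 and 5 and highest at day 6, and *Ttr* reaches 1998 CPM at day 11.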

How the data were processed

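Single-cell suspensions of Zx1 gastruloids were profiled with the 10x Genomics Chromium 3′ kit v3.1. The authors deposited UMI counts per gene and cell, with cells called and no normalization, made with Cell Ranger 3.1.0 and mm10 per the labels (the matrix header of day 11 gives 6.0.1). Libraries held 227398362, 236714826, 182150138 and 149169498 UMIs. From the deposited counts, CPM, percent, ratio and log2 values were computed here on cells with at least 2000 UMIs and a mitochondrial share under 20%, for genes found in at least 4 cells. For 2 duplicated symbols, *Aldoa* and *Ddit3*, the feature with more UMIs was read. The members and gene lists were chosen with earlier results of these data known. Named genes are the rule genes, the 25 largest and 10 smallest ratios among genes with at least 50 CPM in either set (mitochondrial and ribosomal protein genes left out), the 10 at each end between *Foxa2* only and *Sox17* only cells, and genes of the lists; genes of the *Cubn* cells were chosen after their values were seen.

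With 1 library per day no test or p-value was computed. Shares have Clopper-Pearson, CPM Poisson and ratios conditional binomial intervals at 95%, for counting error only. Day 4 cells were clustered (log-normalization to 10000, 2000 variable genes without the rule genes, 30 components, 20 neighbors, Leiden resolution 1). Doublet scores followed the Scrublet approach with 2 simulated doublets per cell; doublets were left in, and the 8% with the highest scores were left out as an alternative. The computation was tested on simulated data. Promoters were 250 bases before RefSeq starts of GRCm38.p6. Python 3.11.15, numpy 2.4.6, scipy 1.17.1, pandas 2.3.3, scikit-learn 1.9.0, igraph 0.11.9 and leidenalg 0.10.2 were used. Alternatives were other UMI thresholds, thinning, cell and gene filters, scalings, weights, pseudocount and comparison cells. Some genes of the lists are counted but not reported here by name.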

Additional observations from a re-analysis of the deposited data

Results flagged for a closer look

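*Wnt11*, a noncanonical Wnt ligand, was higher in endoderm cells at day 4 (ratio of CPM plus 5 of 2.03) and lower in the rule cells at day 11, where the ratio was 0.457, from 0.553 CPM in 26 cells (1 UMI) and 7.14 CPM in the remaining cells. What drew attention is that the direction differs between days. The difference was not tested, and each day is 1 library.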

How the results depend on the processing

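No paired analysis was possible because each day has 1 library. The share of endoderm cells, 7.80%, became 8.71% with at least 2 UMIs in each sum, 5.97% with at least 5, 6.72% with 1 UMI of each factor required, 3.66% with the rule read at 10000 UMIs per cell, 7.18% without the highest doublet scores and 6.21% for the *Spink1* group alone. The count of genes at least 2-fold higher in endoderm cells, 278, became 676 with a pseudocount of 1 CPM and 113 among genes with at least 10 CPM, and that of genes at least 2-fold lower in endoderm cells, 148, became 239 with the rule read at 10000 UMIs and 377 with a pseudocount of 1 CPM. Every other setting gave 259 to 413 higher and 119 to 214 lower genes. The causes were not tested, except that the gene filter tests fewer genes. The *Spink1* group alone and the endoderm cells without the 7 *Cubn* cells were chosen after seeing the data. Of 99 named genes past the limit, 96 to 99 remained past it in each setting. The direction of *Cubn* reversed without the *Cubn* cells, to a ratio of 0.907, and *Amn* and *Dab2* were not past the limit there; *Wnt11*, *Nanog*, *F11r* and *Sp8* missed it in 1 or more of the other settings. Setting the median ratio of genes with at least 20 CPM to 1 gave 338 higher and 119 lower genes. Depth limits any gene of few UMIs, and sets of few cells, such as the 7 *Cubn* cells, the 28 *Foxa2* only cells and the 26 day 11 cells, rest on few UMIs in all.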

Other observations

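A few genes that were outside the lists, of unexpected tissues or below the limit were concentrated in endoderm cells. They were picked after their values were seen and are given as values. *Apoe*, encoding a lipid carrier, was found in all 562 endoderm cells, with a median of 658 CPM per cell against 143 CPM in other cells. *Gata1*, the erythroid factor, had 56 UMIs in 42 endoderm cells (2.34 CPM) and 13 UMIs in the 6640 other cells (0.0639 CPM), while the globin gene *Hbb-bh1* had 0 UMIs in endoderm cells. *Myh7*, a cardiac myosin heavy chain gene, had 36 UMIs in 35 endoderm cells and 5 UMIs in other cells, beside 2 UMIs of *Myh6* in endoderm cells. The ligand gene *Ihh*, of the visceral endoderm and Hedgehog lists, had 107 UMIs in 70 endoderm cells and 20 UMIs in other cells.

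Further genes of the 7 *Cubn* cells were *Srgn* (778 CPM, against 0.593 CPM in the other 555 endoderm cells), *Fabp3* (1946 and 18.7 CPM), *Lgmn* (1024 and 21.2 CPM), *Folr1* (287 and 3.31 CPM) and *Aqp8* (222 and 0.0424 CPM, with 76 of its 77 UMIs in endoderm cells). *Igfbp2* (8.78 and 205 CPM), *Cfc1* (20.5 and 237 CPM) and *Flt1* (5.85 and 132 CPM) were lower in them.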
